A study of Mus musculus with 12 samples.

Results

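Expression of cytosolic heat shock genes was compared between 2 glucose concentrations in cultured mouse aortic smooth muscle cells. Of 10 listed genes, 9 were matched by symbol to a probe set and make up the members described here, out of 22180 genes measured: the HSP70 genes Hspa1a, Hspa1b and Hspa8, the HSP110-type genes Hspa4l and Hsph1, the small heat shock genes Hspb1 and Hspb8, the J-domain gene Dnajb1 and the HSP90 gene Hsp90aa1. The tenth, the heat shock transcription factor gene Hsf1, was not analysed here. Hspa5, which encodes the HSP70 of the endoplasmic reticulum, served as the contrast. The members were chosen by name and not by their values in these samples, although results of this study were known when they were listed.

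The cells were primary aortic smooth muscle cells from mice of the inbred strain C57BL/6J, used at passage 3 to 4 and grown with 10% fetal calf serum in DMEM. One group of 6 samples was kept at 0.3 g/l glucose (1.7 mM) and the other group of 6 at 4.5 g/l (25 mM), with the culture time given as 14 days in the series text and as 1 week in the sample labels. RNA of each sample was hybridised to 1 Affymetrix whole-transcript array, and all values are log2 values made with RMA, which puts the arrays on a common scale. The labels do not tell whether the replicates came from separate cultures or animals, so the spread behind each p-value is that among these arrays and could be technical.

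Heat shock proteins are chaperones that bind unfolded proteins and help them fold, keep them soluble or pass them on for degradation. When damaged protein builds up in the cytosol, the factor HSF1 binds heat shock elements, inverted repeats of the letters GAA, in front of the inducible genes and raises their transcription. Some family members, among them Hspa8, are made at high levels without stress. Unfolded protein inside the endoplasmic reticulum acts through a separate set of sensors and factors, for which Hspa5 is the best known target. In muscle cells several small heat shock proteins bind the cytoskeleton, which carries mechanical load.

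The upstream sequences of the genes that rose are shown with those of Hsph1, which also held a heat shock motif, and of Hspa5. Each is the 250 bases before the annotated start of transcription in RefSeq (GRCm38.p6), written 5′ to 3′ on the strand of the gene: Hspa1a at chr17:34972157-34972406, minus strand; Hspa1b at chr17:34959239-34959488, minus strand; Hspb1 at chr5:135887669-135887918, plus strand; Hsph1, first of 2 annotated starts, at chr5:149636337-149636586, minus strand; Hspa5 at chr2:34771840-34772089, plus strand. Capitals mark matches to the paired heat shock motifs GAANNTTC and TTCNNGAA, which read the same on both strands, or, in Hspa5, to the endoplasmic reticulum stress element (CCAAT, a spacer and CCACG), searched on both strands.
Hspa1a: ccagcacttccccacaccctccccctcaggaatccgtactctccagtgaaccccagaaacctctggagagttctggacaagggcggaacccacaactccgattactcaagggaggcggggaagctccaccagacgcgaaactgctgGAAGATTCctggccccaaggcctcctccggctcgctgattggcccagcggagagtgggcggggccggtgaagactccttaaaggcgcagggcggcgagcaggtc
Hspa1b: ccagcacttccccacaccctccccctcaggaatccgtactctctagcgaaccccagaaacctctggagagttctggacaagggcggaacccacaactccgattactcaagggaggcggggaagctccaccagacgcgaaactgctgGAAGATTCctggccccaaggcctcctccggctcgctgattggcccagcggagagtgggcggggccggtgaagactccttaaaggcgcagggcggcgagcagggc
Hspb1: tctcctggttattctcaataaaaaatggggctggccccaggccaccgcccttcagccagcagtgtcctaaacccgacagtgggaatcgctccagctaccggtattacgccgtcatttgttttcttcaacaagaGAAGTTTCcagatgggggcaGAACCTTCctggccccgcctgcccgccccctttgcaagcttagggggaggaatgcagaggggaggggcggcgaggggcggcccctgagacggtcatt
Hsph1: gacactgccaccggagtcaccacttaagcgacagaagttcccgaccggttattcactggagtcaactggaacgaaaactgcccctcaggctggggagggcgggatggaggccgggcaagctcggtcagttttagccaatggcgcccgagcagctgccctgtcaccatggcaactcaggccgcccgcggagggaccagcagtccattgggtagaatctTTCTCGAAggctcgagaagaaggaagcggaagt
Hspa5: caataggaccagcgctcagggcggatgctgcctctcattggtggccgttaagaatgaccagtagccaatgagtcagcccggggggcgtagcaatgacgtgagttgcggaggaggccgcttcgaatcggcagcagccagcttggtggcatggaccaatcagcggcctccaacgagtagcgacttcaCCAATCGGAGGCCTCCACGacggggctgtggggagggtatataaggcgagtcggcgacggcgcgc

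Windows were found for 7 members and Hspa5; Hspa8 and Hsp90aa1 had none. GAANNTTC occurred at 104 to 97 bases before the start in both Hspa1a and Hspa1b, and in Hspb1 at 117 to 110 and again at 97 to 90 bases. TTCNNGAA occurred in Hsph1 at 33 to 26 bases before the start. Thus 4 of 7 members held at least 1 of these motifs, and Hspa4l, Hspb8 and Dnajb1 held neither in this window. Over all 32851 RefSeq windows of this length, 6.69% held GAANNTTC, 7.17% held TTCNNGAA and 12.8% held either; the stress element of Hspa5 was found in 0.113%. The windows of Hspa1a and Hspa1b were identical at 247 of 250 positions, so their matches are not separate finds. Hsph1 and Dnajb1 had 2 windows each and were counted once per gene, whereas the RefSeq shares are per window. The count of 4 of 7 is therefore not comparable with these shares. A match describes the letters only and is no measurement of binding.

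One array stood apart, and results are given with and without it. Over all probe sets, 0.3 g/l replicate 4 correlated at most at 0.982 with its own group and at 0.985 with a 4.5 g/l array. The smooth muscle markers ranged on all arrays from Acta2, smooth muscle alpha actin, at 12.91 to 13.90 down to Des, desmin, at 5.83 to 6.58. The endothelial markers ranged from Emcn, endomucin, at 10.99 to 11.82 down to Cldn5 at 4.64 to 5.57. Cdh5, at 10.03 to 11.36, and Pecam1, at 9.08 to 9.94, also lay high on all arrays. Tie1, Egfl7 and Esam lay between 5.73 and 7.59, and Kdr, Tek and Vwf near the low end, between 4.97 and 6.40. The mean of 10 endothelial markers lay between 7.68 and 7.73 in 5 low-glucose arrays and was 7.17 in 0.3 g/l replicate 4. In high glucose it lay between 7.62 and 7.76 for replicates 1 to 3 and between 6.95 and 7.01 for replicates 4 to 6. The mean of 8 smooth muscle markers was 9.07 to 9.29 in those 5 low-glucose arrays, 10.22 in 0.3 g/l replicate 4 and 10.59 to 10.79 in 4.5 g/l; in limma 6 of these 8 rose, while 1 of 10 endothelial markers, Emcn, fell by 0.43. Of 7 fibroblast markers Cd34, the brightest at 8.34 to 9.81, fell by 1.02, and Col14a1, at 5.70 to 6.48, rose by 0.37. Fibroblast and macrophage marker means lay at 5.56 to 6.04 (7 genes, 1 dim) and 4.72 to 5.05 (8 genes, 3 dim), where dim means among the lowest 25% of genes. The part of these differences in the results below was not tested. In RNA from a whole culture, fewer cells of a type and less RNA per cell cannot be told apart.

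In high glucose the inducible HSP70 genes Hspa1a and Hspa1b and the small heat shock gene Hspb1 were higher, at 1.76-fold, 2.88-fold and 2.50-fold. The small heat shock gene Hspb8 was 1.28-fold lower. Hspa8, Hspa4l, Hsph1, Dnajb1 and Hsp90aa1 did not pass the test. Thus 3 of 9 members rose and 1 fell, where passing means a limma p below 0.05 after Benjamini-Hochberg adjustment across the 22180 genes. Over all genes, 15.5% passed, 7.01% higher and 8.52% lower in 4.5 g/l. With a change of at least 1.5-fold also required, 3 members passed, against 3.9% of all genes, and all 3 were higher, against 1.92%. In the exact rank-sum test 3 members passed, the same 3, against 8.99% of all genes. The median log2 difference of the members was 0.09, against -0.01 over all genes. Without 0.3 g/l replicate 4 the same 3 members rose, and Hspb8 and Hsph1 fell, while the share of all genes called went from 15.5% to 23.9%.

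**Figure D1:**
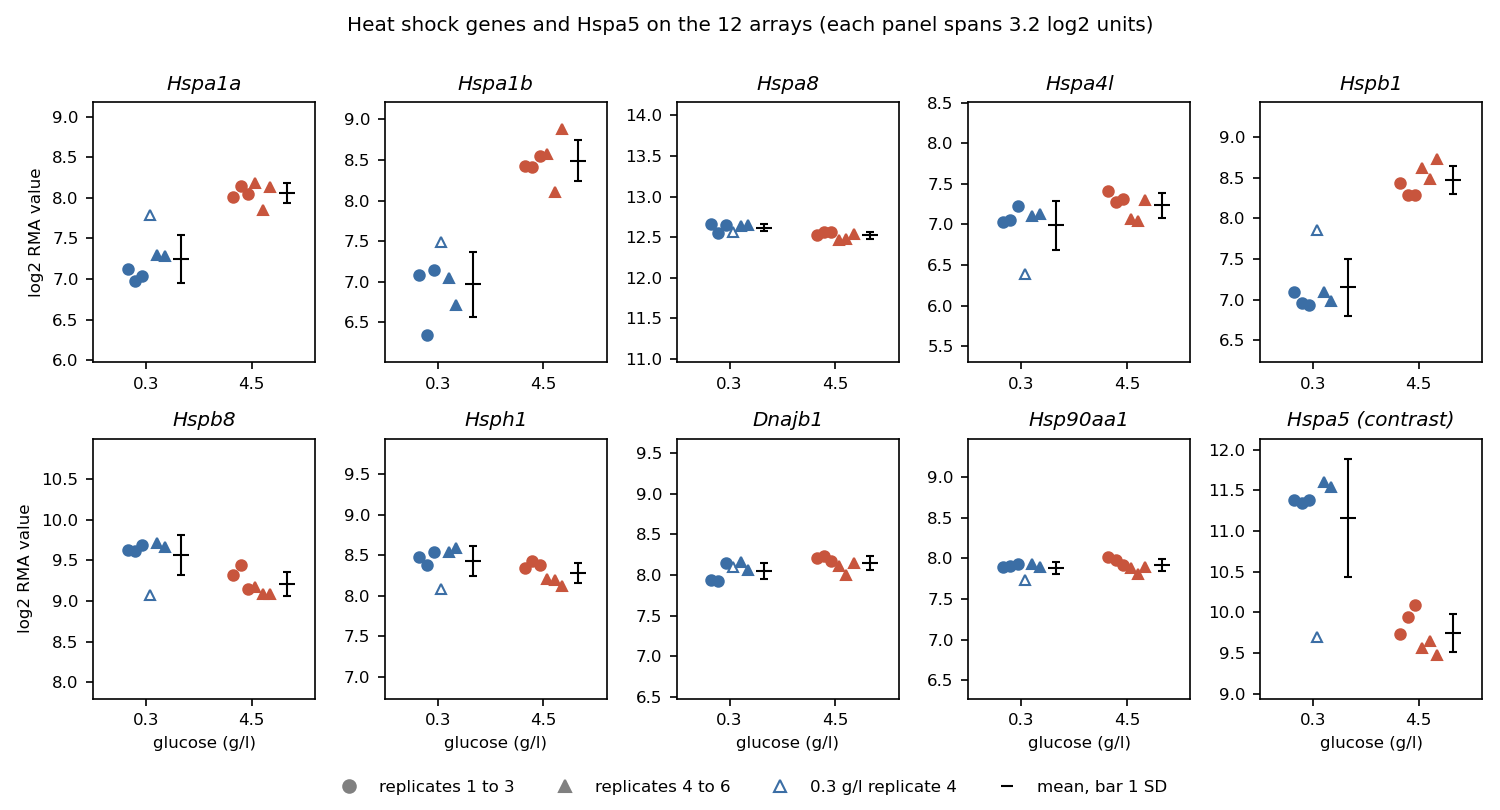
Log2 RMA value (vertical axis, the same span in every panel) of the 9 heat shock genes and Hspa5 in 6 arrays at 0.3 g/l (blue) and 6 at 4.5 g/l glucose (red); circles are replicates 1 to 3, triangles replicates 4 to 6, the open triangle 0.3 g/l replicate 4, and black bars the mean and 1 SD. Hspa1a, Hspa1b and Hspb1 lay higher in 4.5 g/l with no overlap of the groups, and 0.3 g/l replicate 4 was the array of its group nearest to the 4.5 g/l values for these 3 genes and lay among the 4.5 g/l values for Hspa5.

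Hspa1b encodes the stress-inducible HSP70 of the cytosol. In 0.3 g/l its lowest, median and highest log2 values were 6.34, 7.06 and 7.49, and in 4.5 g/l they were 8.11, 8.48 and 8.88 (probe set 17344126). The groups did not overlap: the highest low-glucose array, replicate 4, lay below the lowest high-glucose array, replicate 5. Its mean rose from 6.97 ± 0.40 to 8.49 ± 0.25 (SD, n = 6), a log2 difference of 1.52 ± 0.17 (SE; 95% interval 1.16 to 1.89; limma adjusted p = 0.000121). Without 0.3 g/l replicate 4 the difference was 1.63, within replicates 1 to 3 it was 1.61 and within replicates 4 to 6 it was 1.44. By size this was rise number 46 among the 22180 genes.

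Hspa1a, its neighbour on chromosome 17, encodes a nearly identical protein. Its log2 values ran from 6.97 through a median of 7.20 to 7.78 in 0.3 g/l, and from 7.85 through 8.09 to 8.18 in 4.5 g/l (probe set 17344132). The groups did not overlap, but the gap was narrow, between 7.78 in 0.3 g/l replicate 4 and 7.85 in 4.5 g/l replicate 5. The log2 difference was 0.81 ± 0.12 (SE; limma adjusted p = 0.000626), and it was 0.92 without 0.3 g/l replicate 4. Without overlap between the groups were 3 members in all, Hspa1a, Hspa1b and Hspb1, against 6.4% of all genes in either direction and 3.49% with 4.5 g/l higher. Because the 2 HSP70 genes are nearly identical, their probe sets may share signal and their separate values are uncertain. Another probe set, annotated to both genes, lay at 4.39 in 0.3 g/l and 4.65 in 4.5 g/l, just above the dimmest 25% of genes. Its log2 difference was smaller, 0.26 ± 0.07 (SE), and passed (limma adjusted p = 0.0303 over all annotated probe sets).

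Hspa8 encodes HSC70, the HSP70 that cells make constitutively. Its log2 values lay between 12.56 and 12.66 in 0.3 g/l, with a median of 12.64, and between 12.47 and 12.56 in 4.5 g/l, with a median of 12.53 (probe set 17516365). The groups overlapped at their edges, at 12.56. The log2 difference was -0.10 ± 0.05 (SE), with a 95% interval of -0.20 to 0.01, and did not pass (limma adjusted p = 0.234; -0.11 without 0.3 g/l replicate 4). The other 3 probe sets with this symbol differed by 0.01, -0.04 and -0.04.

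Direct comparisons were made for 3 pairs of members, chosen after their values had been seen. The change of Hspa1b exceeded that of Hspa8 by 1.62 on the log2 scale, and that of Hspa1a by 0.71. The change of Hspb1 exceeded that of Hspb8 by 1.68. In each pair the within-array difference was higher in all 6 high-glucose arrays than in any low-glucose array. For Hspb1 minus Hspb8 the gap was narrow, between -1.22 in low glucose and -1.16 in high glucose. As the pairs were picked for these differences, they are given without a test, and their separation is no added support. The share of all gene pairs that separate in this way was not computed.

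Hspb1 encodes a small heat shock protein that binds actin and is abundant in smooth muscle. Its lowest, median and highest log2 values were 6.93, 7.03 and 7.86 in 0.3 g/l and 8.28, 8.46 and 8.73 in 4.5 g/l (probe set 17443342). In 0.3 g/l, 5 arrays lay within 6.93 to 7.09 and replicate 4 stood above them at 7.86, still below the lowest high-glucose array. The log2 difference was 1.32 ± 0.14 (SE; limma adjusted p = 0.000101), and 1.46 without 0.3 g/l replicate 4. A second probe set of Hspb1 lay near the median of all probe sets, at 4.89 in 0.3 g/l and 5.22 in 4.5 g/l, and differed by 0.33 ± 0.14 (SE; limma adjusted p = 0.130 over all annotated probe sets). With the mean of both probe sets as the value of the gene, the difference was 0.83 and passed (limma adjusted p = 0.00120).

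Hspb8 encodes a small heat shock protein that works with the co-chaperone Bag3 in the removal of misfolded protein. Its log2 values ran from 9.08 through a median of 9.64 to 9.72 in 0.3 g/l, and from 9.08 through 9.16 to 9.45 in 4.5 g/l. Apart from replicate 4, at 9.08, the low-glucose arrays lay at 9.62 to 9.72, above all 4.5 g/l arrays. The gene fell by 0.36 ± 0.11 on the log2 scale (SE; limma adjusted p = 0.0380). Leaving out any 1 array other than 0.3 g/l replicate 4 or 4.5 g/l replicates 1 and 2 ended the call (limma adjusted p between 0.0693 and 0.0870), whereas without 0.3 g/l replicate 4 the difference was -0.46 (limma adjusted p = 0.000381). It did not pass in the exact rank-sum test (adjusted p = 0.213).

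Hsph1 and Hspa4l encode HSP110-type proteins, which exchange the nucleotide of HSP70. Hsph1 had log2 values of 8.09, 8.51 and 8.58 (lowest, median, highest) in 0.3 g/l and of 8.11, 8.28 and 8.42 in 4.5 g/l. The 4 lowest arrays were replicates 4 to 6 of the 4.5 g/l group together with 0.3 g/l replicate 4. These 4 also had the lowest endothelial and the lowest macrophage marker means, and a link with Hsph1 was not tested. For Hsph1, 4.5 g/l replicates 1 to 3 lay at 8.35 to 8.42, overlapping the 8.37 to 8.58 of the other low-glucose arrays. Its log2 difference was -0.16 ± 0.09 (SE; limma adjusted p = 0.289), and without 0.3 g/l replicate 4 it was -0.23 and passed (limma adjusted p = 0.0291). Restricted to replicates 1 to 3, it was -0.08 (limma adjusted p = 0.562). Within replicates 4 to 6 it was -0.23 (limma adjusted p = 0.466). With 0.3 g/l replicate 4 left out of replicates 4 to 6, it was -0.39 and passed (limma adjusted p = 0.0227).

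Hspa4l had log2 values of 6.39, 7.08 and 7.23 (lowest, median, highest) in 0.3 g/l and of 7.04, 7.29 and 7.41 in 4.5 g/l. Its lowest value, 6.39, was that of 0.3 g/l replicate 4, and the remaining arrays of the groups overlapped. The log2 difference of 0.24 ± 0.12 (SE) did not pass (limma adjusted p = 0.229), and it was 0.13 without that array.

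Dnajb1, the J-domain partner that starts the HSP70 cycle, and Hsp90aa1, the inducible HSP90 of the cytosol, are usual members of the heat shock response. Dnajb1 lay between 7.92 and 8.16 in 0.3 g/l (median 8.08) and between 8.01 and 8.24 in 4.5 g/l (median 8.16). Hsp90aa1 lay between 7.73 and 7.93 in 0.3 g/l (median 7.90) and between 7.81 and 8.02 in 4.5 g/l (median 7.91). The groups overlapped for both genes. The log2 difference of Dnajb1 was 0.09, with a 95% interval of -0.04 to 0.23 (limma adjusted p = 0.388), and that of Hsp90aa1 was 0.03, with an interval of -0.09 to 0.16 (limma adjusted p = 0.781) and a turned sign after median centring (-0.0096). On these arrays, the intervals leave out a rise of the size measured for Hspa1a or Hspa1b. Each gene was read from 1 probe set, and the intervals cover only the spread among these arrays. Whether these probe sets would show a change in full was not tested.

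**Figure D2:**
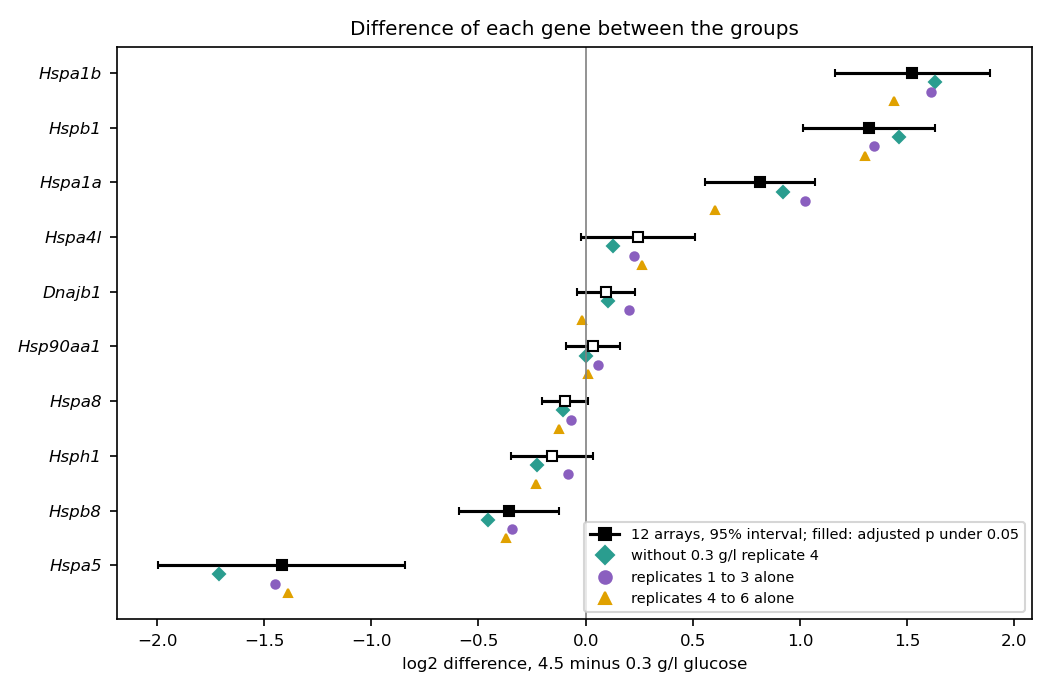
Log2 difference, 4.5 minus 0.3 g/l glucose (horizontal axis), of each gene, with squares and bars for all 12 arrays and the 95% interval (filled where the limma adjusted p was under 0.05), diamonds without 0.3 g/l replicate 4, circles for replicates 1 to 3 and triangles for replicates 4 to 6. Hspa1b, Hspb1 and Hspa1a lay right of 0 in each of these settings, Hspb8 and Hspa5 left of it, and the other 5 genes lay between -0.23 and 0.26.

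Hspa5, the HSP70 chaperone of the endoplasmic reticulum, fell. Its log2 values were 9.70, 11.38 and 11.60 (lowest, median, highest) in 0.3 g/l and 9.47, 9.69 and 10.09 in 4.5 g/l. Only 0.3 g/l replicate 4, at 9.70, lay among the 4.5 g/l arrays. The log2 difference was -1.42 ± 0.27 (SE; limma adjusted p = 0.00308), 2.67-fold lower, and -1.71 without that array. In the exact rank-sum test it did not pass (adjusted p = 0.0964). The change of each of the 9 members lay above that of Hspa5, by 1.06 for Hspb8 to 2.94 for Hspa1b on the log2 scale (two-sided exact permutation tests over 924 assignments of the arrays, p between 0.00216 and 0.0108; adjusted over the 9 comparisons, 0.00557 to 0.0108). When the same differences were tested in limma, all 9 members passed, but so did 98.8% of all genes. This difference is therefore one that the members share with nearly all genes. The values of Hspa5 enter each of these comparisons, and the permutation test was not run over all genes.

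**Figure D3:**
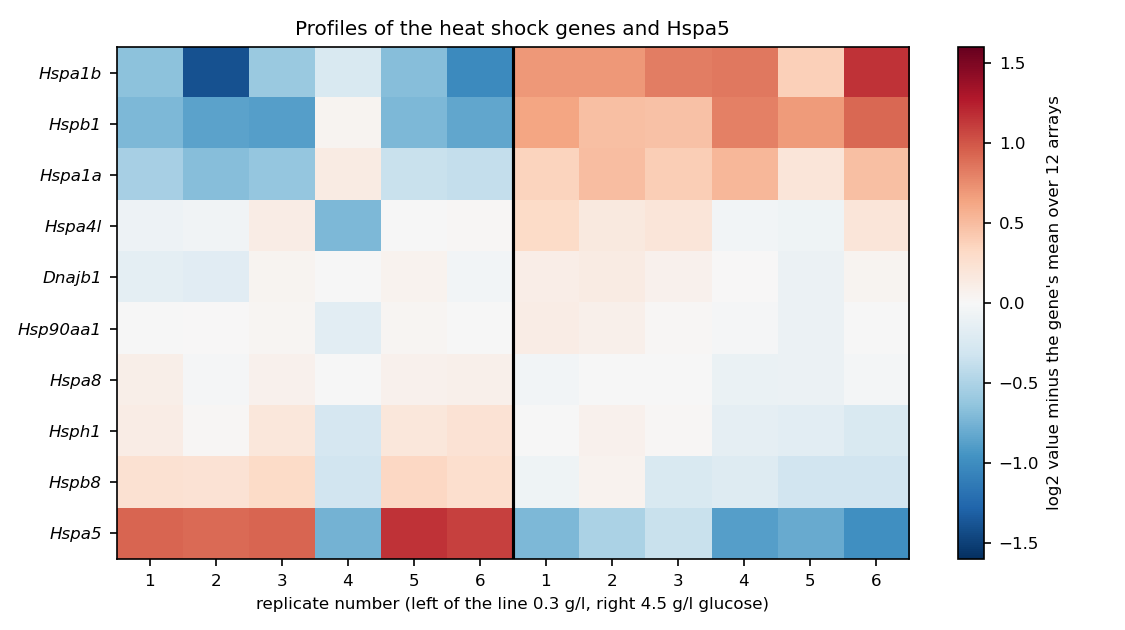
Log2 value of each gene on each array minus the mean of that gene over the 12 arrays (colour), with 0.3 g/l replicates 1 to 6 left of the line and 4.5 g/l replicates 1 to 6 right of it, genes ordered by their difference. Hspa1b, Hspb1 and Hspa1a were low on the left, replicate 4 apart, and high on the right, Hspa5 the reverse except on 0.3 g/l replicate 4, and Dnajb1, Hsp90aa1 and Hspa8 stayed pale throughout.

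Profiles were compared by the root mean square difference between centred log2 values over the 12 arrays. Hspa1b and Hspb1 differed by 0.26, Hspa1a and Hspb1 by 0.30, and Hspa1a and Hspa1b by 0.42, while Hspa1a lay 0.40 from Dnajb1, which did not pass. Hspa8, Dnajb1 and Hsp90aa1 differed from each other by 0.086 to 0.12. Hsph1 lay 0.12 from Hspa8, 0.13 from Hspb8 and 0.14 from Hsp90aa1. Hspa1a, Hspa1b and Hspb1 each had their nearest member among themselves, and Hspa1b and Hspb1 lay at least 0.669 from all other members. Hspa1a, however, lay slightly nearer to Dnajb1 than to Hspa1b. Among all named genes the nearest to Hspa1b were Popdc2 (0.20), Lancl3 (0.25) and Dtna (0.25), which were higher in 4.5 g/l by 1.56, 1.31 and 1.37. The nearest to Hspa8 were Serinc3 (0.030), Psmd11, a proteasome subunit (0.035), and Sar1b (0.035), and the nearest to Hsph1 were the lysosomal genes Lamp1 (0.054) and Ctsd (0.055), with Tm2d2 (0.057). These are descriptions of 12 arrays that share the group difference.

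The wider chaperone network was read from 9 further lists. Of their 100 genes other than Hspa5, 94 were measured: 7 rose, 27 fell and 60 did not pass, with a median log2 difference of -0.14 against -0.01 over all genes. Over all genes 7.01% rose and 8.52% fell, and the list counts that follow are to be read against these shares. Where 0.3 g/l replicate 4 is left out, the share of all genes was 23.9% in either direction. For counts by the rank-sum test it was 8.99%. Among 7 small heat shock genes other than Hspb1 and Hspb8, 3 rose and 0 fell (median 0.15): Hspb6 by 0.72 ± 0.07, Hspb7 by 1.21 ± 0.20 and Cryab, alpha-B crystallin, by 0.25 ± 0.07 (log2, SE), all 3 known from muscle. Hspb6 lay between 7.45 and 7.88 in 0.3 g/l and between 8.34 and 8.47 in 4.5 g/l, without overlap. Hspb7 lay between 8.06 and 9.48 in 0.3 g/l and between 9.34 and 9.84 in 4.5 g/l, and overlapped through 0.3 g/l replicate 4 alone, at 9.48. Of these 3, Cryab did not pass in the exact rank-sum test (adjusted p = 0.0724).

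Among 10 further cytosolic J-domain genes, 2 rose and 1 fell (median -0.03). Dnajb5 rose by 0.69 ± 0.11 and Dnajb4 by 0.57 ± 0.12 (log2, SE), while Dnajb2 fell by 0.39 ± 0.10; Dnajb4 and Dnajb2 did not pass in the rank-sum test (adjusted p = 0.0964 and 0.172). Among 6 other HSP70, HSP110 and HSP90 genes none passed (limma; median 0.04), nor among 8 heat shock factors and regulators (median -0.04). At an unadjusted p under 0.05 the first list held 1 gene, Hspa1l (0.29), and the second held 2, Ier5 (0.21) and Hsf4 (-0.14). The share of all genes at that unadjusted limit was not computed, so these counts cannot be set against it. The rank-sum test passed 0 in both. Without 0.3 g/l replicate 4, Hspa1l and Ier5 rose and the factor gene Hsf2 fell. These 4 were named after their values were seen. Of 20 co-chaperones of HSP70 and HSP90, 2 rose and 2 fell (median -0.08): Pih1d1 fell by 0.31 and Hspbp1 by 0.27, the latter without passing in the rank-sum test (adjusted p = 0.0964), and Bag2 rose by 0.21 and Unc45a, named after its value was seen, by 0.19. Bag2 and Unc45a did not pass after median centring (limma adjusted p = 0.0829 and 0.130). Without 0.3 g/l replicate 4, Bag1, St13 and Ppid also fell, and so did the J-domain gene Dnajc2, all 4 named after their values were seen. Bag3 and Stip1, which are induced in a heat shock response, were named after their values were seen and differed by 0.13 and 0.02 without passing.

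Of 9 subunits of the cytosolic chaperonin, Cct2 fell (by 0.27) and the others did not pass (median -0.11). Of 5 prefoldin subunits, Pfdn1 fell (by 0.21; median -0.20), and it did not pass after quantile normalization or cyclic loess (limma adjusted p = 0.0526 and 0.0535). Without 0.3 g/l replicate 4, 4 of 9 chaperonin and 3 of 5 prefoldin genes fell, with Cct4, Cct5, Cct7, Pfdn2 and Pfdn6 added, in a fit that called 23.9% of all genes. Of 12 mitochondrial chaperones and proteases, 6 fell (median -0.39), or 10 without that array and 3 by rank-sum. They included the protease subunit Clpp by 0.59 ± 0.09, the mitochondrial HSP70 gene Hspa9 by 1.01 ± 0.15 and the J-domain gene Dnaja3 by 0.94 ± 0.17 (log2, SE). Of 18 chaperones of the endoplasmic reticulum, Hspa5 included, 17 fell (median -0.81). In the rank-sum test 1 of them passed, against 8.99% of all genes. The collagen chaperone Serpinh1 fell by 0.38, the Hspa5 partner Dnajb9 fell by 1.31 and Sdf2l1 fell by 2.39. On 0.3 g/l replicate 4, Hspa9 was at 11.26, Dnaja3 at 7.37 and Sdf2l1 at 7.62, against group medians of 12.24, 8.43 and 10.53 in 0.3 g/l and of 11.09, 7.37 and 7.60 in 4.5 g/l.

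**Figure D4:**
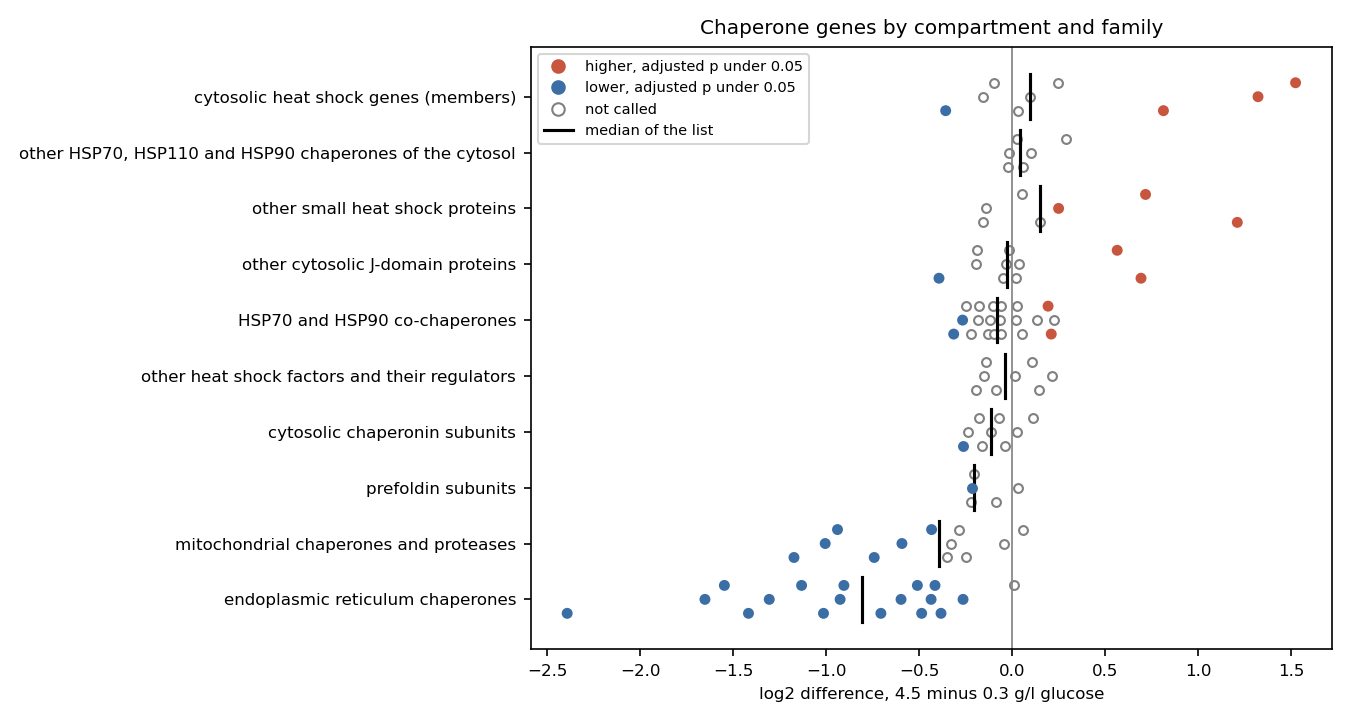
Log2 difference, 4.5 minus 0.3 g/l glucose (horizontal axis), of every measured gene in the 9 members and the 9 further chaperone lists; red and blue points passed an adjusted p of 0.05 in limma as higher or lower, open points did not, and the black line is the median of the list. Called rises lay among the members, the small heat shock proteins, the J-domain proteins and the co-chaperones, while 17 of 18 genes of the endoplasmic reticulum and 6 of 12 of the mitochondria were called lower.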

How the data were processed

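RNA of 12 samples was measured, 1 array each. The authors deposited log2 values per probe set, made with Affymetrix Expression Console and RMA per the submitters' processing notes; versions and genome build were not given in the sources used here. That they are log2 was inferred from their range. The table held 41345 probe sets, of which the platform annotation gave 1 gene symbol to 23521, several to 1814 and none to 16010; only the first were used, 1 probe set per gene (highest mean over 12 arrays; 22180 genes). Groups followed the sample labels.

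A linear model per gene with moderated variances and no block was fitted in limma 3.58.1 under R 4.3.3 (two-sided), and p-values were adjusted by Benjamini-Hochberg across the 22180 genes; the fit was tested on simulated data. Differences between genes were tested with exact permutation of arrays. Members and lists were chosen with earlier results of these data known. Named were all members and Hspa5, up to 3 called genes with the smallest p per list, and the 3 nearest profiles to Hspa1b, Hspa8 and Hsph1. Array number limits the precision: the median SE was 0.0931. Figures were drawn with matplotlib 3.10.9. Alternatives covered moderation, an exact rank-sum test, a filter on dim genes, scaling, probe set choice, array weights, blocks, subsets of arrays and left-out arrays.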

Additional observations from a re-analysis of the deposited data

Results flagged for a closer look

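In 5 of 20 sets of 6 values (each member and Hspa5 in each group), the most extreme array was farther from the others than the 95% limit of Dixon's test; chance gives about 1 in 20. All 5 were 0.3 g/l replicate 4. It lay low for Hspa4l (6.39, next array 7.03), Hspb8 (9.08, next 9.62), Hsp90aa1 (7.73, next 7.89) and Hspa5 (9.70, next 11.35), and high for Hspb1 (7.86, next 7.09). For Hspb1, Hspb8 and Hspa5 it lay on the side of the 4.5 g/l arrays. For Hspb8, Hspa4l and Hsp90aa1 it lay below every 4.5 g/l array. The cause was not tested.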

How the results depend on the processing

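The rises of Hspa1a, Hspa1b and Hspb1 passed in all alternatives run except replicates 4 to 6 alone. There limma called 0 of 9 members, 0 of 94 other chaperone genes and 30 of all genes. At an unadjusted p under 0.05 the first 2 counts were 3 and 29, but the share of all genes at that limit was not computed. In that subset the log2 differences of Hspa1a, Hspa1b and Hspb1 were 0.60, 1.44 and 1.30, and that of Hspa5 was -1.39 (limma adjusted p = 0.214). With 0.3 g/l replicate 4 also left out of that subset, the same 3 members rose and 5 passed, against 15.5% of all genes. Over the other alternatives 3 to 5 members passed. Leaving out 1 array at a time gave 3 to 5 called members and 29 to 50 other chaperone genes. Hspa5 differences ran from -1.71 to -1.33, and 9 members differed from Hspa5 in the permutation test each time. That test was not run over all genes, and in limma on all arrays 98.8% of all genes differed from Hspa5. The count of 9 is therefore not read as a result about the members. The counts of 5 and 50 came without 0.3 g/l replicate 4, where 23.9% of all genes passed. Array weights called 51 other chaperone genes. For array weights, the blocks and the other left-out arrays the share of all genes was not computed, so their counts are not read as a result about chaperones. Members that did not pass turned sign for Dnajb1 within replicates 4 to 6 (-0.015, and -0.019 without 0.3 g/l replicate 4) and for Hsp90aa1 after median centring (-0.0096) and within replicates 4 to 6 without that array (-0.051). Same-numbered arrays did not deviate together (correlations from -0.0458 to 0.173, above 0.1 in 2 of 6 pairs; 1 array correlated best with its own number), so the numbers were not taken as pairs. With the replicate block 3 members passed, Hspb8 no longer did (limma adjusted p = 0.0504), and 31 other chaperone genes passed. The permutation test against Hspa5 could not pass within subsets of 3 arrays and was not run there. Scaling moved the median of all genes by less than 0.1. Low signal limits the probe set shared by Hspa1a and Hspa1b.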
